A study of Homo sapiens with 20 samples.

Results

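Transcripts of 10 genes tied to cell-cell adhesion, cell shape and provisional matrix were followed in WT and GCN2KO keratinocytes, with and without wounding. They were the cadherin genes CDH1, CDH3 and CDH13, the transcription factor genes SNAI2 and ZEB1, the intermediate filament gene VIM, and the matrix genes FN1, THBS1, TNC and SPARC. The genes, and the wider gene lists used below, were chosen by name with earlier results of these data known. Their counts beside the shares of all genes are therefore description and not a test of an unselected set. All 10 genes were found among the 57500 genes listed in each of the 20 count files. NTERT cells are human keratinocytes immortalised with telomerase. WT cells carried a control sgRNA and wild-type EIF2AK4, the gene of the eIF2 kinase GCN2. GCN2KO cells were an early-passage pool edited by CRISPR/Cas9 and not a clone, with guides designed against exon 2 or exon 12 of EIF2AK4, and the sources used here do not say which guide made the sequenced pool. Cells of both genotypes were differentiated in 2% FBS and 2 mM calcium, for 36 h by the methods, although 48 h is also given for sheets of these cells. They were then left unwounded or subjected to high-density wounding (HDW), in which pipette tips were drawn across the monolayer in perpendicular directions, and RNA was taken 6 h later. Each of the 4 groups had 5 libraries. The study treats its replicates as biological. Neither the labels nor the methods say whether the libraries of a group came from separate cultures, and if they did not, p-values measure only the spread between these samples, which may be technical. Nor do they say that the GCN2KO libraries came from separate edited pools. The loss of GCN2 and the history of the edited pool therefore cannot be told apart here.

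Cadherins hold epithelial cells together by binding the same cadherin on the neighbouring cell, with catenins linking their tails to actin. Epithelial cells that move as single cells often exchange E-cadherin (CDH1) for N-cadherin (CDH2), a change driven by factors of the SNAI and ZEB families and accompanied by vimentin and fibronectin. Keratinocytes closing a wound keep their junctions and move as a sheet, and they lay down a provisional matrix that holds fibronectin, tenascin-C and thrombospondin-1. GCN2 phosphorylates eIF2 when uncharged tRNAs accumulate, and the study asked how its loss alters the response of keratinocytes to wounding.

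The libraries held 14083504 to 34611570 counts, and the WT unwounded libraries were the shallowest group, with a median of 23685751. EIF2AK4 itself averaged 4356 normalized read counts in WT unwounded and 4194 in WT HDW cells, against 894 and 874 in GCN2KO cells, so that the transcript was reduced but present in the edited pool. By immunoblot the study could not detect GCN2 protein in GCN2KO cells, and the remaining transcript is no measure of protein. Keratinocyte markers (KRT5, KRT14, TP63, KRT1, KRT10 and IVL) summed to 12390 to 18309 TPM (a level per gene length) over the libraries, with members that went opposite ways between genotypes (given beside CDH3). Of 7 fibroblast markers, COL1A2, COL3A1, LUM, PDGFRA and PDGFRB stayed under 10 normalized counts on average. The others were not silent, with group means of 736 to 892 counts for COL1A1 and 23.2 to 54.7 for DCN. Of 6 melanocyte markers TYR and SOX10 were at 0 in every library. Endothelial markers summed to 0.214 to 0.752 TPM and leukocyte markers to 32.0 to 159 TPM, with PTPRC, CD3E and LYZ under 10 normalized counts on average. CD14 carried the leukocyte sum and was lower in GCN2KO cells (log2 fold changes of −1.10 without and −0.67 with HDW, adjusted p = 6.15e-06 and 0.00425). In bulk RNA, fewer cells of a type and less RNA per cell cannot be told apart.

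Normalized read counts below are raw counts scaled by TMM library size, given as mean ± SD (n = 5). A gene is said to rise or fall where the adjusted p was at most 0.05, and it is called a DE gene where the log2 fold change was also at least 1 in size. The promoter windows of 4 matrix genes are shown because FN1, TNC and THBS1 rose after HDW in both genotypes and SPARC fell after HDW in WT cells. The RefSeq windows (GRCh38.p14) run from 250 bases before to 50 bases after the annotated start, 5′ to 3′ on the gene's strand, and capitals mark the motif matches described below.
THBS1 (chr15:39580829-39581128, plus strand): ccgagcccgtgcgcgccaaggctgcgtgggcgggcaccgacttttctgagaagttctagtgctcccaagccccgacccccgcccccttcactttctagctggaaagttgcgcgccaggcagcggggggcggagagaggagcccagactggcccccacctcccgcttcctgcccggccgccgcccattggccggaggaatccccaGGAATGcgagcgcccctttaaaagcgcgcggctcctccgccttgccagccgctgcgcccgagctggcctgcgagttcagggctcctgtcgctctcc
FN1 (chr2:215436019-215436318, minus strand): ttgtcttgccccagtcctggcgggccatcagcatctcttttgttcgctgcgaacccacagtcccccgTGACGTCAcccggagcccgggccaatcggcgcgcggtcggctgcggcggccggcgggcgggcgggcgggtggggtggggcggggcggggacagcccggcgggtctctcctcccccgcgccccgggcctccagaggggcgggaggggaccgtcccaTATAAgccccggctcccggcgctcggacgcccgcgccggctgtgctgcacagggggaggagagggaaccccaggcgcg
TNC (chr9:115118108-115118407, minus strand): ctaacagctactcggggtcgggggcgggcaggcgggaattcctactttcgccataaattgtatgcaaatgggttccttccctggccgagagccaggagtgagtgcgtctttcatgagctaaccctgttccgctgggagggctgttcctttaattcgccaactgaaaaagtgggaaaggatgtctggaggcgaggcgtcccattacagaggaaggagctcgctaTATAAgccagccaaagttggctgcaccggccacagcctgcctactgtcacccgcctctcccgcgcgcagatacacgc
SPARC (chr5:151686866-151687165, minus strand): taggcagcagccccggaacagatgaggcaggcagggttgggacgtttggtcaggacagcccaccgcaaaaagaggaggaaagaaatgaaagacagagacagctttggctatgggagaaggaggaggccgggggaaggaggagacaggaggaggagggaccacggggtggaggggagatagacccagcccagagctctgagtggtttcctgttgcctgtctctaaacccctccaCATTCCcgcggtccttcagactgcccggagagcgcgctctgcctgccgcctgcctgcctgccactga
FN1 carried a TATA box (TATAA, searched on both strands) at −28 and TNC one at −27, whereas the windows of THBS1 and SPARC held no exact match. Variant forms of the TATA box were not searched. Of 35116 windows of the same length, 20.44% held these letters. THBS1 held the TEAD motif GGAATG at −46, and SPARC held it on the other strand (CATTCC) at −17, against 14.03% of all windows. A cAMP response element (TGACGTCA) stood at −183 of FN1, against 1.848% of all windows. None of the 4 windows held an E2 box (CACCTG or CAGGTG, 20.59% of all windows), the letters read by SNAI and ZEB factors, or an AP-1 motif (TGANTCA, 7.709%). These matches describe letters in a window and no binding was measured. The CRE, TEAD and TATA motifs were added after the sequences had been seen.

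Across the 10 genes, 9 had enough reads to be tested and ZEB1 did not. In unwounded cells, 3 of the 9 rose and 5 fell in GCN2KO against WT, where 33.4% of all 15348 genes tested rose and 33.1% fell (66.5% in all). VIM was the DE gene that was higher and CDH3 the one that was lower, against 8.21% and 8.22% of all genes (16.4% in all). The 5 libraries of each genotype did not overlap for 7 of the 9, against 53.3% of all genes. After HDW, 2 rose and 6 fell in GCN2KO against WT, where 35.9% of 15855 genes rose and 35.8% fell (71.7% in all). VIM and CDH3 were again the 2 DE genes, against 7.1% of genes higher and 7.83% lower (14.9% in all), and 5 of the 9 did not overlap, against 57.2% of genes.

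HDW raised 5 and lowered 1 of the 9 in WT cells, where 26.1% of genes rose and 25.2% fell (51.3% in all). THBS1 and TNC were DE genes and higher, where 2.62% of all genes were called higher and 1.55% lower (4.17% in all). The WT groups did not overlap for 4 genes that were higher and 1 that was lower, against 19.2% and 17.7% of all genes (36.9% in all). In GCN2KO cells HDW raised 3 and lowered 0, where 11.9% of genes rose and 10.8% fell (22.7% in all). Of the 9, 0 were DE genes there, against 0.475% of genes higher and 0.196% lower (0.671% in all), and 2 were higher without overlap and 0 lower, against 7.52% and 7.65% of genes (15.2% in all). Spread between libraries, as the common biological coefficient of variation, was 0.108 in the GCN2KO fit and 0.0587 in the WT fit. The part of this wider spread in the fewer calls in GCN2KO cells was not tested. The response to HDW differed between genotypes for 1 gene upwards and 2 downwards, where 11.2% and 12.5% of 16536 genes passed this interaction test (23.7% in all), and 0 reached a size of 1 on the log2 scale, against 1.16% and 2.15% of genes (3.31% in all). Median log2 fold changes of the 9 were −0.47 and −0.25 for GCN2KO against WT without and with HDW, and 0.14 for HDW in either genotype, where the medians of all genes were 0.0042, 0.0020, −0.0024 and −0.00097.

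**Figure D1:**
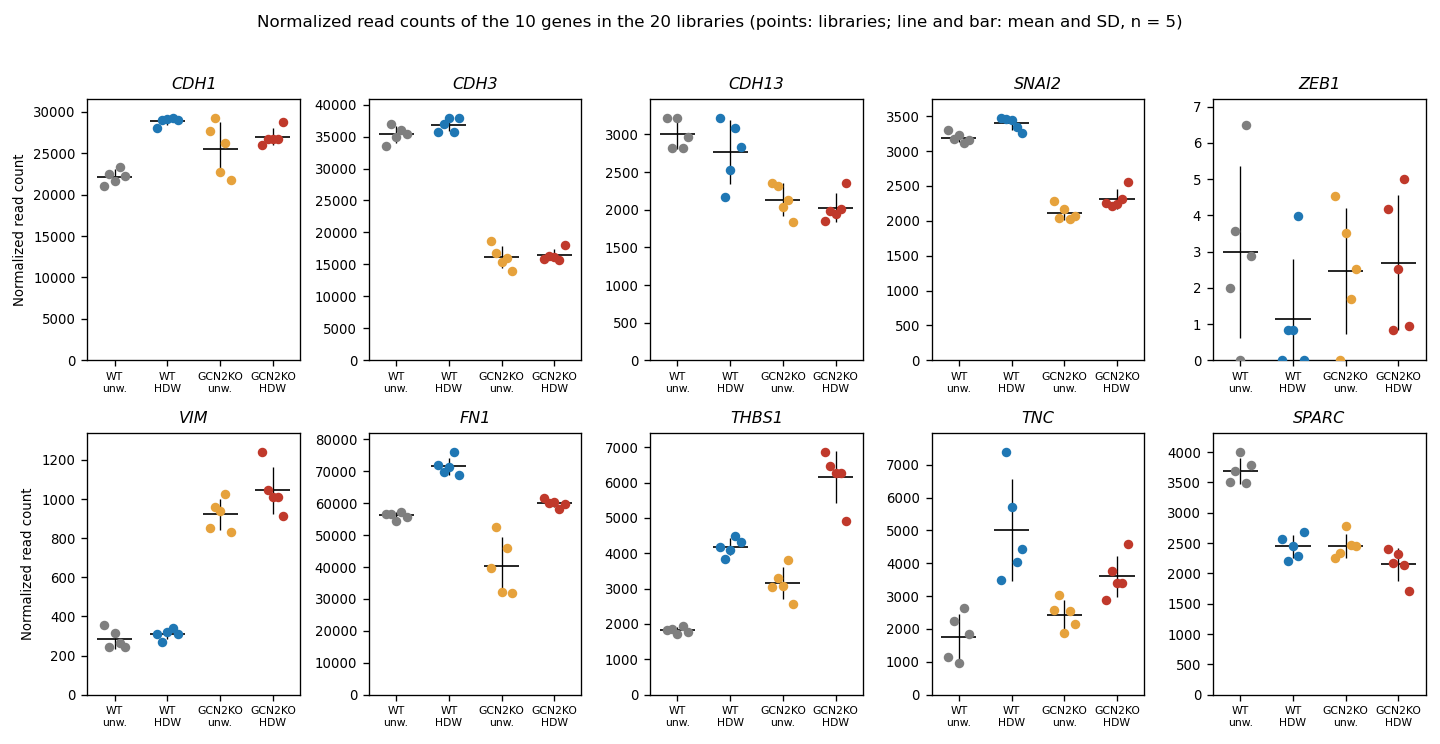
Normalized read counts (vertical axes, from 0) of the 10 genes in each library of the 4 groups, with the mean as a line and the SD as a bar (n = 5). The GCN2KO libraries lie apart from the WT libraries for CDH3, SNAI2 and VIM with and without HDW, and the 4 groups of FN1 and of THBS1 do not overlap.

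**Figure D2:**
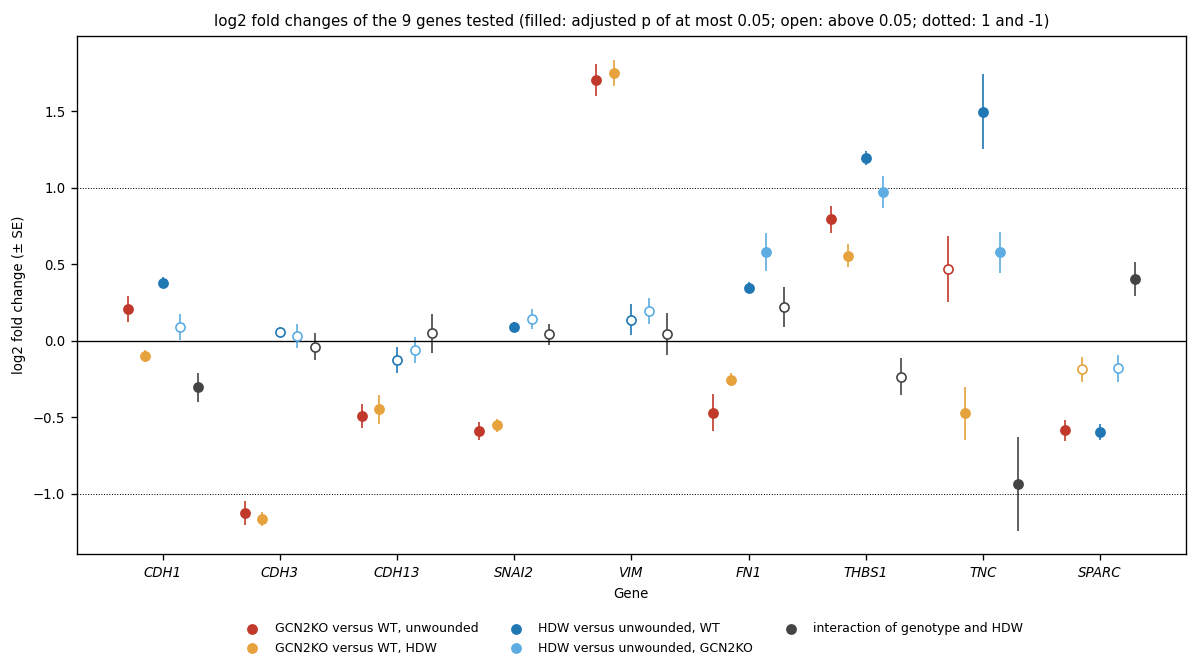
The log2 fold change (vertical axis, ± SE) of the 9 genes tested is drawn for 4 pairwise comparisons and for the interaction of genotype and HDW. Filled points passed an adjusted p of 0.05, and VIM lies near 1.7 in both genotype comparisons while CDH3 lies below −1.

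CDH3 encodes P-cadherin, the classical cadherin of basal keratinocytes, and lies beside CDH1 on chromosome 16 (chr16:68636189-68727468, plus strand, GRCh38). The 5 WT unwounded libraries held normalized read counts of 33528, 36931, 34866, 36066 and 35326, and the WT HDW libraries 35764, 36926, 37911, 35786 and 37877. In GCN2KO cells the counts were 18733, 16791, 15335, 16068 and 13975 unwounded and 15857, 16393, 16135, 15666 and 18036 after HDW. Every GCN2KO library lay below every WT library. CDH3 fell by 1.12 on the log2 scale in unwounded GCN2KO cells (SE 0.0794, adjusted p = 4.35e-09), 2.18-fold lower, and by 1.17 after HDW (SE 0.0456, adjusted p = 1.69e-10), 2.24-fold lower. Of all genes tested, 27.0% were lower without overlap of the groups in unwounded cells and 29.3% after HDW. HDW left CDH3 at differences of 0.06 in WT (SE 0.0347, adjusted p = 0.183) and 0.03 in GCN2KO cells (SE 0.0801, adjusted p = 0.807), and the 2 responses differed by −0.04 (SE 0.0890, adjusted p = 0.793). Keratinocyte markers also differed between genotypes, in both directions. KRT14 and TP63, genes of basal keratinocytes, were lower in unwounded GCN2KO cells (−0.85 and −0.52, adjusted p = 1.18e-07 and 2.37e-06), as was KRT1 (−1.06, adjusted p = 0.00179), whereas KRT5, also a basal gene, was higher (0.50, adjusted p = 3.70e-05), and so was IVL, the gene of the differentiation marker involucrin (1.83, adjusted p = 4.94e-09). After HDW the same 5 genes differed by −0.77, −0.43, −0.83, 0.52 and 1.96 in that order (adjusted p of 0.0214 or less). KRT10 differed by 0.23 (adjusted p = 0.144) and 0.28 (adjusted p = 0.0321). The part of the state of differentiation in the lower CDH3, SNAI2 and integrin counts was not tested. The antisense gene CDH3-AS1 shares 8.401% of the exonic bases of CDH3 and held 0.110% of its mean count.

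CDH1 encodes E-cadherin, the main cadherin of epithelial adherens junctions (chr16:68737292-68835537, plus strand). Its normalized counts were 21076, 22464, 21581, 23373 and 22264 in WT unwounded and 28061, 29043, 29103, 29198 and 29041 in WT HDW libraries. GCN2KO libraries held 27699, 29249, 22776, 26259 and 21739 unwounded and 26021, 26724, 26731, 26686 and 28703 after HDW. The groups of WT cells did not overlap, whereas the GCN2KO unwounded libraries spread from the WT unwounded level to the WT HDW level. CDH1 rose by 0.38 with HDW in WT cells (SE 0.0335, adjusted p = 2.12e-07), 1.30-fold, and the difference was 0.09 in GCN2KO cells (SE 0.0850, adjusted p = 0.466). The response in GCN2KO cells was lower by 0.30 than that in WT cells (interaction −0.30, SE 0.0922, adjusted p = 0.0184). This call held without each library in turn and was lost with scaling to total counts only (−0.24, adjusted p = 0.0686).

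Between genotypes CDH1 moved little. It was higher by 0.21 in unwounded GCN2KO cells (SE 0.0841, adjusted p = 0.0373) and lower after HDW, at −0.10 (SE 0.0383, adjusted p = 0.0325), and the groups overlapped in both comparisons. The first call was lost without any 1 of WT unwounded replicates 1, 2, 3 and 5 and GCN2KO unwounded replicates 1, 2 and 4, with differences of 0.15 to 0.21 and adjusted p of 0.0598 to 0.109. The second was lost without any 1 of WT HDW replicates 3 and 4 and GCN2KO HDW replicates 1, 2, 3 and 4, with differences of −0.10 to −0.086 and adjusted p of 0.0534 to 0.0773.

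Per length, CDH3 stood above CDH1 in WT cells and below it in GCN2KO cells. Mean CDH1 levels were 528 TPM unwounded and 670 TPM with HDW in WT cells, and 578 and 644 TPM in GCN2KO cells. CDH3 levels were 800 and 812 TPM in WT and 347 and 373 TPM in GCN2KO cells. The ratio of CDH3 to CDH1 TPM averaged 1.52 and 1.21 in WT cells without and with HDW and 0.604 and 0.578 in GCN2KO cells. As normalized read counts the ratio was 1.60 ± 0.0374, 1.28 ± 0.0319, 0.636 ± 0.0432 and 0.608 ± 0.0150, and the lowest WT library (1.23) lay above the highest GCN2KO library (0.676). The summed normalized counts of the pair were 57495 ± 2053 and 65742 ± 1351 in WT and 41725 ± 4752 and 43390 ± 1932 in GCN2KO cells.

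**Figure D3:**
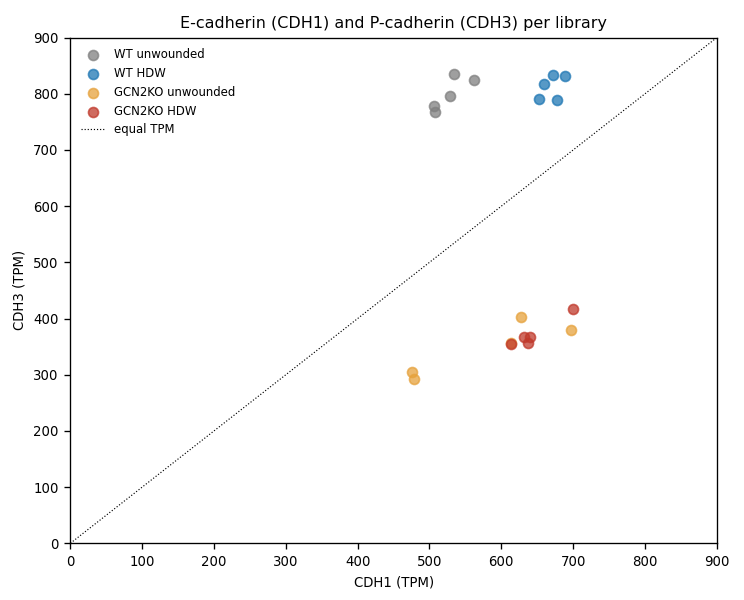
Each point is 1 library, with its CDH1 level (horizontal axis, TPM) and its CDH3 level (vertical axis, TPM), and the dotted line marks equal levels. All 10 WT libraries lie above the line and all 10 GCN2KO libraries below it.

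CDH13 encodes T-cadherin, a cadherin anchored by a lipid and lacking a cytoplasmic tail (chr16:82626965-83800640, plus strand). Its counts were 3217, 2819, 3214, 2818 and 2962 in WT unwounded and 3211, 2170, 2526, 3083 and 2833 in WT HDW libraries. GCN2KO libraries held 2360, 2311, 2041, 2126 and 1834 unwounded and 1849, 1986, 1943, 2013 and 2349 after HDW. The genotypes did not overlap in unwounded cells, and after HDW WT replicate 2 fell among the GCN2KO libraries. CDH13 fell by 0.49 in unwounded GCN2KO cells (SE 0.0772, adjusted p = 3.51e-05) and by 0.45 after HDW (SE 0.0948, adjusted p = 0.000729). With HDW it differed by −0.12 in WT (adjusted p = 0.246) and −0.06 in GCN2KO cells (adjusted p = 0.620). CDH13-AS2, on the other strand, shares 21.35% of its exonic bases and held 0.158% of its mean count.

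N-cadherin was at the edge of detection. CDH2 had 0 to 24 raw counts a library, and its mean normalized counts were 3.72 without and 6.77 with HDW in WT cells, and 7.11 and 12.6 in GCN2KO cells. It passed the filter on low counts in the interaction fit alone (0.17, SE 0.655, adjusted p = 0.886), so the pairwise comparisons as fitted gave no test of it. With all 20 libraries in 1 fit, CDH2 was higher by 0.98 in GCN2KO than WT cells after HDW (SE 0.3597, adjusted p = 0.0196), and it passed without the filter (0.96, adjusted p = 0.0290) but not by DESeq2 (0.94, adjusted p = 0.0618). The difference in unwounded cells was 0.81 (adjusted p = 0.148), and those with HDW were 0.68 in WT (adjusted p = 0.294) and 0.85 in GCN2KO cells (adjusted p = 0.0748) in the same fit of 20 libraries. CDH1 held at least 21076 normalized counts in every library.

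Of the other cadherins and catenins, CDH11, a cadherin of mesenchymal cells, was a DE gene in both genotype comparisons. It had 16.4 ± 6.51 and 16.8 ± 2.38 normalized counts in WT and 104 ± 12.7 and 164 ± 48.3 in GCN2KO cells, with log2 fold changes of 2.69 (SE 0.213, adjusted p = 1.63e-08) and 3.29 (SE 0.241, adjusted p = 3.41e-08). Of the 13 genes of this list, the members CDH1, CDH3 and CDH13 included, 9 were tested in each genotype comparison. In unwounded cells 4 rose and 3 fell in GCN2KO against WT (median −0.03), and after HDW 3 rose and 4 fell (median 0.017), where 66.5% and 71.7% of all genes passed. HDW itself raised 2 and lowered 1 in WT and raised 2 and lowered 0 in GCN2KO cells (51.3% and 22.7% of all genes passed). A pair of catenins, named after their values were seen, went opposite ways in unwounded GCN2KO cells, with CTNNA1 at 0.60 (adjusted p = 1.24e-06) and CTNNB1 at −0.20 (adjusted p = 0.0111).

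SNAI2 encodes Slug, a repressor of CDH1 that basal keratinocytes and wound-edge keratinocytes carry (chr8:48917598-48921740, minus strand). Its counts were 3295, 3173, 3226, 3114 and 3160 in WT unwounded and 3474, 3463, 3446, 3347 and 3263 in WT HDW libraries. GCN2KO libraries held 2278, 2039, 2168, 2019 and 2070 unwounded and 2248, 2215, 2247, 2312 and 2563 after HDW. Every GCN2KO library lay below every WT library. SNAI2 fell by 0.59 in unwounded GCN2KO cells (SE 0.0583, adjusted p = 2.04e-07) and by 0.55 after HDW (SE 0.0446, adjusted p = 8.31e-08). In WT cells HDW raised it by 0.09 (SE 0.0319, adjusted p = 0.0309), where the 2 groups overlapped. That call was lost without any 1 of WT unwounded replicates 2, 4 and 5 and WT HDW replicates 1, 2 and 3, with differences of 0.077 to 0.086 and adjusted p of 0.0571 to 0.0728. In GCN2KO cells the difference was 0.14 (SE 0.0636, adjusted p = 0.115). Genes within 5 Mb of SNAI2 had median differences of GCN2KO against WT of −0.16 in unwounded (13 genes) and −0.35 in HDW cells (14 genes). Over chromosome 8 the medians were 0.050 and 0.040. The part of this neighbourhood in the SNAI2 difference was not tested.

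ZEB1, a second repressor of CDH1, was near the limit of detection (chr10:31318495-31529814, plus strand). Raw counts were 1, 2, 0, 7 and 3 in WT unwounded, 0, 1, 1, 4 and 0 in WT HDW, 4, 0, 4, 2 and 3 in GCN2KO unwounded, and 5, 1, 3, 3 and 1 in GCN2KO HDW libraries. The 5 libraries of each group summed to 13, 6, 13 and 13 reads. ZEB1 was below the filter in every comparison, and a difference between groups was not detectable at this depth. ZEB1-AS1, on the other strand, averaged 30.7 normalized counts.

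The wider list of 10 EMT transcription factors, SNAI2 and ZEB1 included, had 7 genes tested in each genotype comparison. In unwounded GCN2KO cells 2 rose and 4 fell (median −0.59), and after HDW 2 rose and 3 fell (median −0.26), where 33.4% of all genes rose and 33.1% fell without and 35.9% and 35.8% with HDW. The 2 that rose were SNAI1 and TWIST1, both at low counts. SNAI1, which encodes Snail, had 0 to 2 raw reads a library in WT unwounded and 15 to 29 in GCN2KO unwounded cells, or 6 against 92 reads in all. Per total count that is a ratio of 11.9, with an exact 95% interval of 5.26 to 33.3 that covers counting error only. After HDW it averaged 3.97 normalized counts in WT and 26.1 in GCN2KO cells (2.71, SE 0.380, adjusted p = 1.81e-05). TWIST1 was higher by 1.53 (adjusted p = 2.41e-05) and 1.04 (adjusted p = 2.43e-05). TCF4, which encodes an E protein, fell from 524 ± 50.1 to 133 ± 19.3 in unwounded and from 474 ± 39.5 to 177 ± 33.7 in HDW cells (log2 fold changes of −1.99 and −1.42, adjusted p = 2.39e-10 and 5.68e-08). TWIST2 fell by 1.24 after HDW (adjusted p = 2.35e-06). HDW raised 2 of 5 tested in WT and 1 of 7 in GCN2KO cells (26.1% and 11.9% of all genes rose), and lowered 0 in either, with 0 DE genes.

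The 10 genes of a list that keep epithelial identity, such as grainyhead-like factors and epithelial splicing regulators, were all tested. In GCN2KO cells 7 rose and 2 fell without HDW (median 0.35), and 8 rose and 1 fell with HDW (median 0.44), against 33.4% rising and 33.1% falling of all genes without and 35.9% and 35.8% with HDW. EPCAM, an epithelial adhesion molecule, was higher by 2.11 (207 ± 33.0 to 899 ± 78.3 counts, adjusted p = 6.61e-11) and by 1.64 after HDW (adjusted p = 1.76e-09). ESRP1, an epithelial splicing regulator, was higher by 1.00 in unwounded cells (SE 0.0575, adjusted p = 4.49e-10), and GRHL1 by 1.24 after HDW (SE 0.0998, adjusted p = 8.25e-08). The 2 that fell without HDW, named after their values were seen, were OVOL1 (−0.68, adjusted p = 1.08e-06) and GRHL2 (−0.28, adjusted p = 0.00231). OVOL1 also fell after HDW (−0.63, adjusted p = 7.29e-05). HDW raised 5 and lowered 2 of the 10 in WT and raised 4 and lowered 1 in GCN2KO cells, with 0 DE genes, where 51.3% and 22.7% of all genes passed.

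VIM encodes vimentin, the intermediate filament protein of mesenchymal and migrating cells (chr10:17228241-17237593, plus strand). WT libraries held 358, 244, 316, 265 and 244 normalized counts unwounded and 311, 268, 322, 343 and 312 after HDW. GCN2KO libraries held 850, 960, 940, 1024 and 833 unwounded and 1239, 1049, 1011, 1011 and 915 after HDW. The lowest GCN2KO library lay well above the highest WT library. VIM rose by 1.71 in unwounded GCN2KO cells (SE 0.105, adjusted p = 9.30e-10), 3.26-fold, and by 1.75 after HDW (SE 0.0837, adjusted p = 8.36e-10), 3.37-fold, where 26.3% and 27.9% of all genes were higher without overlap. It was the largest change among the 9 genes in either genotype comparison. With HDW VIM differed by 0.14 in WT (SE 0.102, adjusted p = 0.279) and 0.19 in GCN2KO cells (SE 0.0860, adjusted p = 0.115). Its mean level stayed modest, at 8.0 TPM or the 41.6 percentile of 16387 genes in WT unwounded and 24.4 TPM or the 66.2 percentile in GCN2KO unwounded cells.

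Beside this rise, the 7 fibroblast markers summed to 14.5 to 16.9 TPM without and 11.6 to 13.4 with HDW in WT libraries, and to 9.23 to 13.9 and 11.3 to 14.7 TPM in GCN2KO libraries. Without HDW every GCN2KO sum lay below every WT sum. COL1A1 among these markers held 8.46 to 15.7 TPM over the libraries. The 6 melanocyte markers summed to 3.91 to 4.97 and 4.80 to 5.46 TPM in WT and to 8.50 to 12.2 and 9.93 to 14.9 TPM in GCN2KO libraries, and MITF among them averaged 87.5 and 124 normalized counts in WT against 338 and 476 in GCN2KO cells. TYR and SOX10 were at 0 throughout and DCT was under 10 normalized counts on average. The part of such cells in the VIM counts was not tested. Antisense genes share 24.63% of the exonic bases of VIM, and VIM-AS1 held 3.20% of its mean count.

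In the list of 10 mesenchymal cytoskeletal genes, VIM included, 6 rose and 1 fell of 8 tested in unwounded GCN2KO cells (median 0.62), and 5 rose and 3 fell of 9 after HDW (median 0.62), where 66.5% and 71.7% of all genes passed. SYNM, the gene of synemin, a filament protein that assembles with vimentin, was higher by 1.82 (adjusted p = 1.43e-06) and 2.03 (adjusted p = 5.26e-08), from 22.8 ± 6.57 to 82.3 ± 19.8 and from 29.6 ± 9.30 to 123 ± 3.87 counts. TPM1, a tropomyosin gene, fell by 1.46 in unwounded cells (adjusted p = 3.99e-11). TAGLN, which encodes the actin-binding protein transgelin, averaged 64.0 ± 15.4 counts without and 789 ± 154 with HDW in WT cells, and 135 ± 24.4 and 206 ± 28.9 in GCN2KO cells. It rose by 3.67 with HDW in WT cells (adjusted p = 3.93e-10), and the response in GCN2KO cells was lower, with an interaction of −3.06 (SE 0.229, adjusted p = 2.08e-09). Thus TAGLN was higher in GCN2KO than WT cells before HDW (1.12, adjusted p = 2.18e-05) and lower after it (−1.93, adjusted p = 2.62e-08). NES, the gene of nestin, had 79 raw reads over the WT HDW and 3 over the GCN2KO HDW libraries, a ratio per total count of 23.6 with an exact 95% interval of 7.77 to 117. Overlapping genes share 47.8% of the exonic bases of TAGLN, 27.8% of SYNM and 22.7% of TPM1, which leaves those counts uncertain.

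FN1 encodes fibronectin, a main component of the provisional matrix that keratinocytes cross (chr2:215360440-215436073, minus strand). WT libraries held 56766, 56581, 54425, 57288 and 55794 counts unwounded and 71975, 69651, 71241, 75970 and 68971 after HDW. GCN2KO libraries held 39812, 52536, 32193, 45858 and 31805 unwounded and 61652, 60197, 60257, 58165 and 59909 after HDW. The 4 groups did not overlap, in the order WT HDW, GCN2KO HDW, WT unwounded and GCN2KO unwounded from high to low. HDW raised FN1 by 0.35 in WT (SE 0.0354, adjusted p = 1.00e-06), 1.27-fold, and by 0.58 in GCN2KO cells (SE 0.122, adjusted p = 0.00592), 1.49-fold. Higher without overlap were 19.2% of all genes in WT and 7.52% in GCN2KO cells. In GCN2KO against WT it fell by 0.47 in unwounded cells (SE 0.119, adjusted p = 0.00243) and by 0.25 after HDW (SE 0.0408, adjusted p = 6.83e-05). The difference between the HDW responses was 0.22 (SE 0.132, adjusted p = 0.240), and it passed without GCN2KO unwounded replicate 2 (0.33, adjusted p = 0.0240).

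THBS1 encodes thrombospondin-1, a secreted matricellular glycoprotein that binds CD36, CD47 and integrins and can activate latent TGF-β (chr15:39581079-39599466, plus strand). WT libraries held 1836, 1849, 1709, 1951 and 1776 counts unwounded and 4177, 3850, 4105, 4481 and 4324 after HDW. GCN2KO libraries held 3055, 3302, 3070, 3795 and 2555 unwounded and 6856, 6455, 6263, 6281 and 4901 after HDW. The 4 groups did not overlap, and THBS1 was higher both with HDW and in GCN2KO cells. HDW raised it by 1.20 in WT (SE 0.0456, adjusted p = 4.73e-11), 2.29-fold, and by 0.97 in GCN2KO cells (SE 0.106, adjusted p = 0.000147), 1.96-fold. The genotype differences were 0.79 in unwounded (SE 0.0882, adjusted p = 7.81e-07) and 0.56 in HDW cells (SE 0.0747, adjusted p = 1.24e-05). The 2 HDW responses differed by −0.24 (SE 0.121, adjusted p = 0.166). THBS1 reached a log2 fold change of 1 in GCN2KO cells without GCN2KO unwounded replicate 4 (1.05) or without GCN2KO HDW replicate 5 (1.04).

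THBS1 lies 334.649 kb before the edited gene on chromosome 15. GPR176 between them, named after its values were seen, fell by 1.46 in unwounded and 1.13 in HDW GCN2KO cells (adjusted p = 5.94e-10 and 5.66e-09). Of 45 genes tested within 2 Mb of THBS1 in unwounded cells 11 rose and 15 fell, with a median of −0.07, and of 46 after HDW 17 rose and 22 fell, with a median of −0.15. Of all genes, 33.4% rose and 33.1% fell in unwounded cells and 35.9% and 35.8% after HDW. The part of the edit's neighbourhood in the THBS1 difference was not tested.

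**Figure D4:**
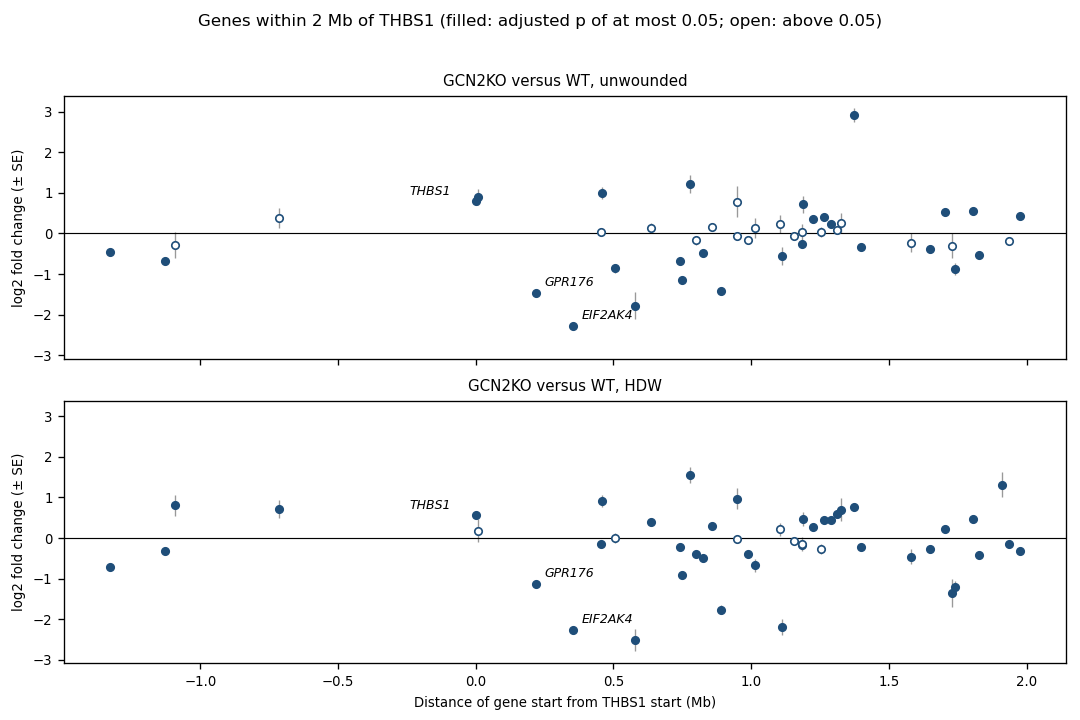
Fold changes between GCN2KO and WT cells (vertical axis, log2 ± SE) are plotted against distance from the start of THBS1 (horizontal axis, Mb) for unwounded (top) and HDW cells (bottom). THBS1 at 0 is higher in GCN2KO cells, GPR176 and EIF2AK4 are lower, and genes on either side go both ways.

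TNC encodes tenascin-C, a large matrix protein of wound edges that modulates adhesion to fibronectin (chr9:115019575-115118207, minus strand). WT libraries held 1149, 2234, 961, 2625 and 1837 counts unwounded and 3492, 7378, 5717, 4051 and 4441 after HDW. GCN2KO libraries held 2582, 3043, 1882, 2545 and 2140 unwounded and 2896, 3755, 3407, 3407 and 4585 after HDW. Relative to its mean, TNC had the widest spread of the 9 genes in WT cells, yet the WT groups did not overlap, whereas the GCN2KO groups did. HDW raised it by 1.498 in WT (SE 0.244, adjusted p = 0.000109), 2.82-fold, and by 0.58 in GCN2KO cells (SE 0.133, adjusted p = 0.00927), 1.49-fold. The GCN2KO response was lower by 0.94 on the log2 scale, with an interaction of −0.94 (SE 0.305, adjusted p = 0.0278). That call was lost without WT unwounded replicate 1 (−0.82), WT HDW replicate 2 (−0.76) or WT HDW replicate 3 (−0.89), at adjusted p of 0.0503 to 0.0635.

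The genotype differences of TNC had opposite signs. In unwounded GCN2KO cells TNC differed by 0.47 (SE 0.215, adjusted p = 0.0653), and it passed without WT unwounded replicate 2 (0.56) or 4 (0.66) or GCN2KO unwounded replicate 3 (0.55). Without WT unwounded replicate 3 it was 0.30 (adjusted p = 0.168). After HDW it was lower, at −0.47 (SE 0.174, adjusted p = 0.0246). The HDW call was lost without WT HDW replicate 2 (−0.30) or 3 (−0.43) or GCN2KO HDW replicate 1 (−0.40), 3 (−0.45) or 4 (−0.45), and by DESeq2 (−0.48, adjusted p = 0.0668).

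SPARC encodes osteonectin, a collagen-binding matricellular protein that loosens cell contacts with matrix (chr5:151661096-151686975, minus strand). WT libraries held 3506, 3681, 3997, 3489 and 3783 counts unwounded and 2575, 2212, 2453, 2294 and 2690 after HDW. GCN2KO libraries held 2249, 2330, 2776, 2468 and 2446 unwounded and 2408, 2167, 2326, 2143 and 1705 after HDW. The WT unwounded libraries lay above all others, and the remaining 3 groups overlapped. HDW lowered SPARC in WT cells, with a log2 fold change of −0.60 (SE 0.0525, adjusted p = 2.10e-07), and the difference in GCN2KO cells was −0.18 (SE 0.0883, adjusted p = 0.147). The interaction was 0.40 (SE 0.109, adjusted p = 0.00906) and passed without each of the 20 libraries in turn. SPARC fell by 0.58 in unwounded GCN2KO cells (SE 0.0677, adjusted p = 1.25e-06) and differed by −0.18 after HDW (SE 0.0816, adjusted p = 0.0558). The HDW difference passed without WT HDW replicate 2 or 4 or GCN2KO HDW replicate 1 or 3 (−0.23 to −0.21, adjusted p of 0.0219 to 0.0497), and it was −0.11 without GCN2KO HDW replicate 5 (adjusted p = 0.0952). The median difference of GCN2KO against WT over the genes of chromosome 5 was 0.35 in unwounded (694 genes) and 0.36 in HDW cells (720 genes), and SPARC lay below it in both. Over the 53 genes within 5 Mb of SPARC the median was smaller, at 0.15 and 0.21.

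Thus FN1, THBS1 and TNC rose with HDW in both genotypes and SPARC fell in WT cells. In the wider list of 20 matricellular and provisional matrix proteins, those 4 included, 12 were tested. HDW raised 6 and lowered 5 in WT (median 0.15), and raised 5 and lowered 1 in GCN2KO cells (median 0.20), where 26.1% of all genes rose and 25.2% fell in WT and 11.9% rose and 10.8% fell in GCN2KO cells. CCN1 and CCN2, secreted ligands of integrins, were DE genes in both, with CCN1 at 1.22 (adjusted p = 4.05e-09) and 1.37 (adjusted p = 0.000745) and CCN2 at 1.38 (adjusted p = 2.01e-05) and 1.46 (adjusted p = 0.000745). Between genotypes 4 rose and 6 fell in GCN2KO cells, both without (median −0.16) and with HDW (median −0.22), and 66.5% and 71.7% of all genes passed. CCN2 was higher by 1.62 (adjusted p = 1.25e-06) and 1.70 (adjusted p = 6.98e-06), at 38.6 ± 5.15 and 98.6 ± 24.6 counts without and with HDW in WT cells and 116 ± 28.2 and 319 ± 89.5 in GCN2KO cells. LINC01013, on the other strand, shares 11.9% of its exonic bases. SMOC1, a calcium-binding relative of SPARC, was higher by 1.96 in unwounded cells (adjusted p = 6.11e-09), with an interaction of −1.04 (adjusted p = 0.000202). TNXB, a tenascin gene, was higher by 1.18 after HDW (adjusted p = 3.66e-07), though it has a near-identical partial copy that leaves its counts uncertain. FBLN1, the gene of fibulin-1, which binds fibronectin, fell from 2231 ± 171 to 745 ± 91.1 and from 1920 ± 161 to 714 ± 67.5 counts (by 1.58 and 1.43, adjusted p = 3.02e-10 and 1.11e-09).

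Receptors of these matrix proteins were mostly lower in GCN2KO cells. Of 14 receptors of fibronectin, tenascin-C and thrombospondin-1, 12 were tested, and 0 rose and 9 fell in GCN2KO against WT both without (median −0.66) and with HDW (median −0.75), where 33.1% and 35.8% of all genes fell. ITGB6, the β6 subunit of a receptor for fibronectin and tenascin-C that keratinocytes raise in wounds, fell from 8930 ± 402 to 2364 ± 585 and from 7269 ± 730 to 2734 ± 596 counts (by 1.91 and 1.41, adjusted p = 2.79e-09 and 1.25e-07). ITGB8 fell by 1.73 in unwounded cells (adjusted p = 3.10e-10) and ITGB5 by 1.20 after HDW (adjusted p = 4.19e-08). CD36, a receptor of thrombospondin-1, averaged 349 ± 93.7 and 80.2 ± 8.28 counts without and with HDW in WT cells and 82.9 ± 23.1 and 47.8 ± 14.6 in GCN2KO cells. Its log2 fold change was −2.09 in unwounded GCN2KO cells (adjusted p = 1.22e-07) and −2.13 with HDW in WT cells (adjusted p = 5.27e-08), with an interaction of 1.34 (SE 0.294, adjusted p = 0.00174). HDW raised 6 and lowered 3 of the 12 in WT and raised 2 and lowered 1 in GCN2KO cells, where 51.3% and 22.7% of all genes passed. A further gene model shares 16.7% of the exonic bases of ITGB6.

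**Figure D5:**
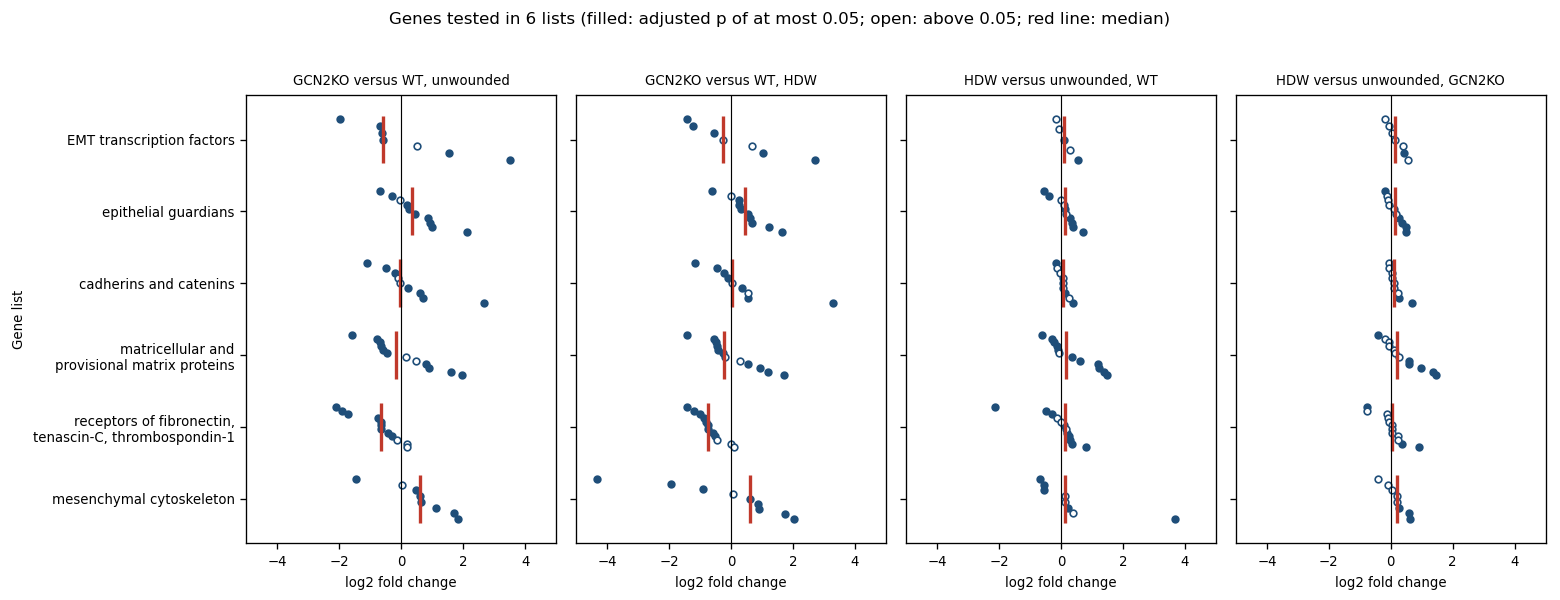
Each point is a gene tested, placed by its log2 fold change (horizontal axes) in 4 comparisons and by gene list (vertical axis), with the median of each list as a red line. In GCN2KO against WT the receptor list has its median at −0.66 without and −0.75 with HDW, and the epithelial list at 0.35 and 0.44.

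Over the 20 libraries, the gene whose centred and scaled log2 counts came closest to each of the 9, of 16536 genes, was LARGE2 for CDH3 (root mean square difference 0.112 SD), KANK4 for SNAI2 (0.142), ETF1 for VIM (0.168), DHX33 for FN1 (0.174) and EPHA2 for THBS1 (0.181). The distances were larger for CDH1 (UGGT1, 0.254), SPARC (SGCB, 0.278), CDH13 (EIF4B, 0.299) and TNC (APBB2, 0.347), whose closest genes followed them less well. Within groups, GCN2KO unwounded replicate 5 was the lowest library of its group for 6 of the 9 genes, and GCN2KO HDW replicate 5 was the highest for 5 and the lowest for 3. The matching counts over all genes were not taken, so whether these extremes were particular to the 9 genes was not tested.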

How the data were processed

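Total RNA of 20 NTERT keratinocyte samples was extracted with the RNeasy Plus kit and sequenced as paired-end reads on Illumina HiSeq by GENEWIZ. The deposited values are raw read counts per Ensembl gene, which the authors made with Trimmomatic 0.36, STAR 2.5.2b against GRCh38 and featureCounts of Subread 1.5.2. Strandedness, the annotation release and the handling of overlapping genes are not given in the sources used here. Per the labels, samples fall into WT and GCN2KO, unwounded and HDW, with 5 in each group.

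Of the 57500 genes, 56410 were matched to GENCODE 44 for symbols, positions and exonic lengths. Genes passing filterByExpr (count minimum of 10, total of 15) were tested with the edgeR 4.0.16 quasi-likelihood test (R 4.3.3), TMM scaling and Benjamini-Hochberg adjustment over all genes tested. Each comparison was fitted on its 10 libraries and the interaction on all 20. The SE is the log2 fold change divided by the square root of the F statistic. The thresholds for DE genes (1 on the log2 scale, adjusted p of 0.05) follow the study. The fits were tested on simulated data. Normalized counts are raw counts divided by TMM library size relative to the mean over 20 libraries, and TPM was computed from exonic lengths. Intervals cover counting error only.

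The 10 genes and all lists were chosen with earlier results of these data known. Named genes were the 10, CDH2, EIF2AK4, up to 3 DE genes with the smallest adjusted p in each direction per list and comparison, and for each of the 10 the gene with the smallest root mean square difference over 20 libraries (log2 CPM, pseudocount 0.5). Alternatives were DESeq2 1.42.0, DESeq2 size factors, library size alone, no filter, adjusted p alone, a replicate block, all 20 samples in 1 fit, and each sample left out. Motifs were sought in RefSeq promoter windows, which held VIM, FN1, ZEB1, SPARC, TNC and THBS1. CDH1, CDH3, CDH13 and SNAI2 had no window.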

Additional observations from a re-analysis of the deposited data

Results flagged for a closer look

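In 3 genes the response to HDW differed between genotypes by the interaction test. The GCN2KO response minus the WT response was −0.30 for CDH1 (adjusted p = 0.0184), 0.40 for SPARC (adjusted p = 0.00906) and −0.94 for TNC (adjusted p = 0.0278). In each the response was smaller in size in GCN2KO than in WT cells, with log2 fold changes of 0.09 against 0.38 for CDH1, −0.18 against −0.60 for SPARC and 0.58 against 1.498 for TNC. WT unwounded libraries were the shallowest group, and the HDW fit of GCN2KO cells had a wider spread between libraries than that of WT cells. The part of depth and of spread in these differences was not tested.

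Single libraries stood apart from the other 4 of their group in 4 cases. CDH1 was lowest in WT HDW replicate 1 (28061 normalized counts) and highest in GCN2KO HDW replicate 5 (28703). SNAI2 was highest in GCN2KO HDW replicate 5 (2563). ZEB1 was highest in WT HDW replicate 4, at 3.99 normalized counts or 4 raw reads. Chance gives such a library in about 1 in 20 groups, and the search covered the 10 genes and CDH2 in each of the 4 groups. That rate is for normally spread values and does not hold for the few reads of ZEB1.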

How the results depend on the processing

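The counts of DE genes among the 9 tested were 1 higher and 1 lower in both genotype comparisons, 2 higher and 0 lower for HDW in WT, 0 for HDW in GCN2KO cells and 0 for the interaction under DESeq2, DESeq2 size factors, library size alone, no filter and all 20 samples in 1 fit (this last not for the interaction). By adjusted p alone they were 3 higher and 5 lower in unwounded cells, 2 and 6 after HDW, 5 and 1 for HDW in WT, 3 higher for HDW in GCN2KO cells, and 1 higher and 2 lower for the interaction. Without each sample in turn the counts ranged from 0 to 1 higher for HDW in GCN2KO cells (THBS1) and from 0 to 1 lower for the interaction (TNC), and did not move from the counts above in the other 8 cases (1 to 1, 2 to 2 or 0 to 0). Library size alone moved the median of all genes by at most 0.065 and ended the CDH1 calls (0.17 and −0.066 between genotypes, interaction −0.24) and the SNAI2 call for HDW in WT cells (0.049, adjusted p = 0.233). That SNAI2 call was also lost without the filter (0.10) and with all 20 samples in 1 fit (0.090). With all 20 samples CDH1 (−0.099, adjusted p = 0.184) and TNC (−0.47, adjusted p = 0.0524) were no longer called after HDW, and SPARC was (−0.19, adjusted p = 0.0379), as was SNAI2 for HDW in GCN2KO cells (0.13). Without the filter TNC in unwounded cells (0.45) and SPARC after HDW (−0.21) were called. The cause was not tested. Replicate numbers are shared between groups, and the labels do not say what they stand for. The mean correlation of same-numbered libraries was 0.021, 0.036, 0.0034 and −0.092 in the 4 comparisons, and 1 of 20 pairs was over 0.1. Such a correlation runs over all genes and cannot show whether single genes were paired. The fit with a replicate block gave the same counts of DE genes, 1 higher and 1 lower in both genotype comparisons, called TNC in unwounded cells (0.54, adjusted p = 0.00398) and lost CDH1 after HDW (−0.099, adjusted p = 0.0564). Directions turned only in differences that never passed: CDH3 for HDW in GCN2KO cells without GCN2KO unwounded replicate 5 (−0.018) or GCN2KO HDW replicate 5 (−0.0061), over −0.018 to 0.089 without each sample in turn, and in the interaction CDH3 with library size alone (0.026) or without GCN2KO unwounded replicate 1 (0.018), over −0.082 to 0.018 without each sample in turn, VIM without WT unwounded replicate 1 (−0.033) or 3 (−0.00037), WT HDW replicate 2 (−0.0051) or GCN2KO HDW replicate 1 (−0.024), over −0.033 to 0.10 likewise, and CDH13 without WT HDW replicate 2 (−0.029) or GCN2KO HDW replicate 5 (−0.011), over −0.029 to 0.11 likewise. Over single genes 741 alternatives kept direction and side of the threshold, 37 lost and 13 gained a call, and 10 turned. Depth limits ZEB1, which was not tested, and CDH2, whose reads were too few for the filter in the pairwise fits.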
